A study of Mus musculus with 6 samples.

Results

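Secreted antagonists and modulators of bone morphogenetic protein (BMP) signaling were examined in the aortic valves of adult mice. The genes examined were 9, named from general knowledge of the pathway, with earlier results of these data known, of 23107 genes listed by symbol in the deposited counts. They were Nog (Noggin), Chrd (Chordin), Chrdl1 (Chordin-like 1), Grem1 (Gremlin 1), Fst (Follistatin), Fstl1 (Follistatin-like 1), Fstl3 (Follistatin-like 3), Bmper (BMP-binding endothelial regulator) and Twsg1 (Twisted gastrulation). Of these, 8 reached 10 counts in 3 or more of the 6 libraries and were tested, and Grem1 had 0 counts in all 6.

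RNA-Seq libraries were made from whole aortic valve tissue of outbred mice aged 4 months, 3 from controls and 3 from caAcvr1:Nfatc1Cre mutants. The mutants carried a transgene encoding constitutively active Acvr1, a BMP type I receptor, which Cre switches on, together with a Cre cassette knocked into the Nfatc1 locus. The study describes recombination by this driver in the endocardium and its derivatives, in valve interstitial cells and at the leaflet–wall junction, but not in myocardium or smooth muscle. The labels call the controls wild type, while the methods allow controls with either transgene alone or with neither, and it is not stated which were sequenced. Neither the sex of the mice nor the number of mice per library is stated, so p-values measure the spread between these libraries only. The question was whether the antagonists differed between mutant and control valves.

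BMPs are secreted ligands that bind pairs of type I and type II receptors and act through Smad proteins. Antagonists such as Noggin, Chordin and Gremlin bind BMPs outside the cell and keep them from their receptors, and Follistatin and Follistatin-like 3 bind activins above all. Bmper and Twisted gastrulation can either restrain or promote BMP activity, depending on the context. In developing valves BMP signaling takes part in cushion formation, and in adult valves it has been linked with calcification.

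Promoter sequence was at hand for 6 of the 9 genes (RefSeq windows on GRCm38.p6, from 250 bases before to 50 after the gene start), and Nog, Chrdl1 and Fst were not among them. The upstream parts of 3 promoters are shown, since Chrd varied much like Twsg1 and Fstl3 over the 6 libraries, as described further on. Fstl1 varied like them too, but only 68 bases of its window lie before its first exon and these hold no copy of the elements searched. They are written 5′ to 3′ on the strand of the gene and end before the first annotated exon. The capitals mark 2 GC-rich elements that BMP Smads are known to bind. The first is GGCGCC, which reads alike on both strands. The second is GGAGCC, which on the opposite strand is written with the letters GGCTCC, and the elements do not match the same letters. The Chrd stretch lies at chr16:20732877-20733126 on the plus strand, that of Fstl3 at chr10:79777024-79777271 on the plus strand, and that of Twsg1 at chr17:65951227-65951437 on the minus strand.
Chrd: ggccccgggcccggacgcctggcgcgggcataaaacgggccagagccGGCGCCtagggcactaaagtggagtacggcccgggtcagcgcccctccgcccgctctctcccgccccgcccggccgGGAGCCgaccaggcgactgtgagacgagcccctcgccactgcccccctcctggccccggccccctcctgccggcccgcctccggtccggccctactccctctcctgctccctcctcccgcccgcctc
Fstl3: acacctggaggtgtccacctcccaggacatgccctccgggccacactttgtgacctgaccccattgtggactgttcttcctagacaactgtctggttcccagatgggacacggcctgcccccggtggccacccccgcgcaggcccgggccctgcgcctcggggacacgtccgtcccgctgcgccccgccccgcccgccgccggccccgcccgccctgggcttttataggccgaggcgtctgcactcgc
Twsg1: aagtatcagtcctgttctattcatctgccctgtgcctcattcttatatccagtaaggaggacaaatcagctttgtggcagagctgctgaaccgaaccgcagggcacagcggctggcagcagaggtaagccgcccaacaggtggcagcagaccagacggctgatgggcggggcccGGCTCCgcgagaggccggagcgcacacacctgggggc

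In the stretches shown, Chrd held 1 copy of each element, Twsg1 held 1 copy of GGAGCC and Fstl3 held neither. Over the whole 300-base windows and both strands, GGCGCC was found in 2 of the 6 genes (Chrd and Grem1) and in 11.9% of all 32544 windows, and GGAGCC in 4 of the 6 (Bmper, Chrd, Fstl1 and Twsg1) and in 31.0% of all windows. The 6 windows were rich in G and C, from 66.7% in Fstl1 to 78.3% in Chrd, against a median of 53.0% over all windows. These matches describe the letters of the windows and nothing was measured there.

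The 6 libraries held between 32218343 and 55728854 fragments. Levels are given as CPM, the counts scaled to library size by the TMM method of edgeR, and comparisons between genes as CPM per kilobase of exon. Markers of the expected cells were present, with all 10 markers of valve interstitial cells and all 8 endothelial markers among the genes tested. Markers of neighbouring tissues differed widely between libraries, and directions between the groups were seen as well. Log2 fold changes lay below 0 for 9 of 10 smooth muscle markers and 6 of 6 mesothelial and epicardial markers. They lay above 0 for 8 of 10 cardiac muscle markers. The summed level of 10 cardiac muscle markers ran from 12530 to 38960 CPM in the controls and from 17540 to 39960 CPM in the mutants, that of 10 smooth muscle markers from 7338 to 14760 and from 4065 to 7417 CPM, and that of 6 mesothelial and epicardial markers from 119 to 1259 and from 145 to 543 CPM. The highest smooth muscle and mesothelial sums and the lowest cardiac muscle sum were all in control replicate 2. Macrophage markers summed to 726 to 835 CPM in the controls and 920 to 1002 CPM in the mutants, and all 8 tested had a log2 fold change above 0. The part of these cells in the results was not tested. Covariate fits, given further on, were made for the smooth muscle and cardiac muscle scores alone. Of the markers listed in the counts, tested or not, none in these lists was at 0 in all libraries. In whole tissue, fewer cells of a type cannot be told apart from less RNA per cell. Acvr1 is listed once, and whether reads of the transgene were counted with it is not stated. Its control mean was 59.0 ± 9.21 CPM and its mutant mean 54.7 ± 4.28 CPM (SD, n = 3 each), so that it did not serve as a check on the genotype labels. Nfatc1, the locus of the driver, had means of 138 ± 22.9 and 161 ± 24.3 CPM, with overlapping groups. In what follows, the values of single libraries are listed in the order of replicates 1, 2 and 3.

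The detected genes spanned a wide range of levels. Fstl1, a secreted glycoprotein of mesenchymal cells, and Twsg1 stood far above the rest, with 172 ± 31.2 and 93.0 ± 17.2 CPM per kilobase (SD, n = 3) in the controls. Together they made up 86.4% to 89.6% of the summed level per length of the 9 genes in each library. In the controls Fstl1 exceeded 98.1% and Twsg1 96.2% of the genes tested that had a length.

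Next came Fstl3, at 11.5 ± 2.79 CPM per kilobase, and Bmper, at 10.02 ± 2.64, followed by Fst at 4.75 ± 1.27, Chrdl1 at 3.38 ± 0.688, Chrd at 2.54 ± 1.27 and Nog at 1.18 ± 0.438 (each the mean of 3 controls with its SD). The classical antagonist Noggin was thus the lowest of the detected genes, above 25.2% of the genes tested. In order over all 6 libraries, Fstl1 and Twsg1 did not overlap with each other or with any other member. From Fstl3 down to Nog, the ranges of every 2 neighbours overlapped. Fstl3 lay above Bmper in 2 of the 6 libraries, so that these genes could not be ordered, whereas Chrdl1 lay above Chrd in 6 of 6 and Chrd above Nog in 5 of 6.

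**Figure D1:**
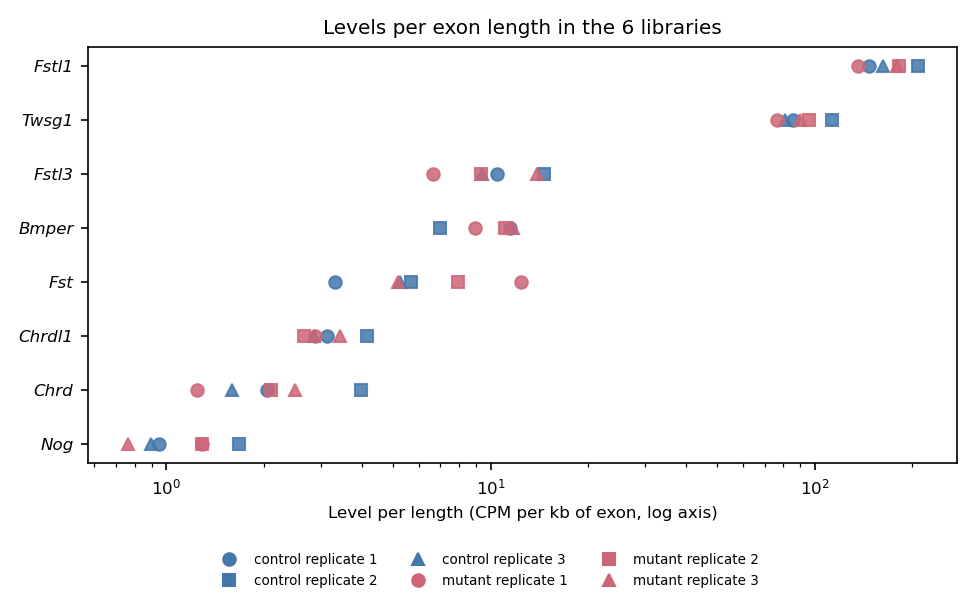
Level per exon length (CPM per kilobase, log axis) of the 8 detected genes, with 1 point for each of the 6 libraries, controls in blue and mutants in red. Fstl1 and Twsg1 stand apart at the right, and the ranges of the other 6 genes overlap with those of their neighbours.

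Grem1 (chromosome 2, 113746164 to 113758646 on GRCm38), which encodes a BMP-binding protein of the DAN family, was listed at 0 counts in every library. A count of 0 allows up to 3 counts of the scaled total, which here comes to 0.0560 CPM in control replicate 1 and 0.0942 CPM in mutant replicate 3, the deepest and the shallowest library. These limits cover counting error only and hold only if the 0 is a true count. Whether Grem1 was absent or its estimate by Cuffdiff failed could not be settled from the deposited values, so Grem1 is reported as listed at 0. With 0 counts in both groups, no fold change was computed. Among all genes listed, 4518 had 0 counts in all 6 libraries.

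In the comparison of mutants with controls, 0 of the 8 members passed an adjusted p of 0.05 in edgeR's quasi-likelihood test, as was the case for 0 of all 15354 genes (0%). The adjusted p of each of the 8 genes was 0.999. DESeq2 and limma-voom also called 0 of the 8, while over all genes DESeq2 called 26 and limma-voom 0. At an unadjusted p under 0.05 there was 1 member, Fst, which was higher in the mutants, where 1.59% of all genes passed in that direction. Of the others, Bmper had a log2 fold change above 0 and Nog, Chrd, Chrdl1, Fstl1, Fstl3 and Twsg1 had values below 0. The median over the 8 was -0.08, beside 0.01 over all genes tested. Without control replicate 2, 2 of the 8 lay below 0 and the median was 0.09, and without mutant replicate 1 these were 4 and 0.01. In 0 of the 8 did all 3 mutants lie above all 3 controls or below them, beside 4.04% and 4.83% of all genes in these directions.

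**Figure D2:**
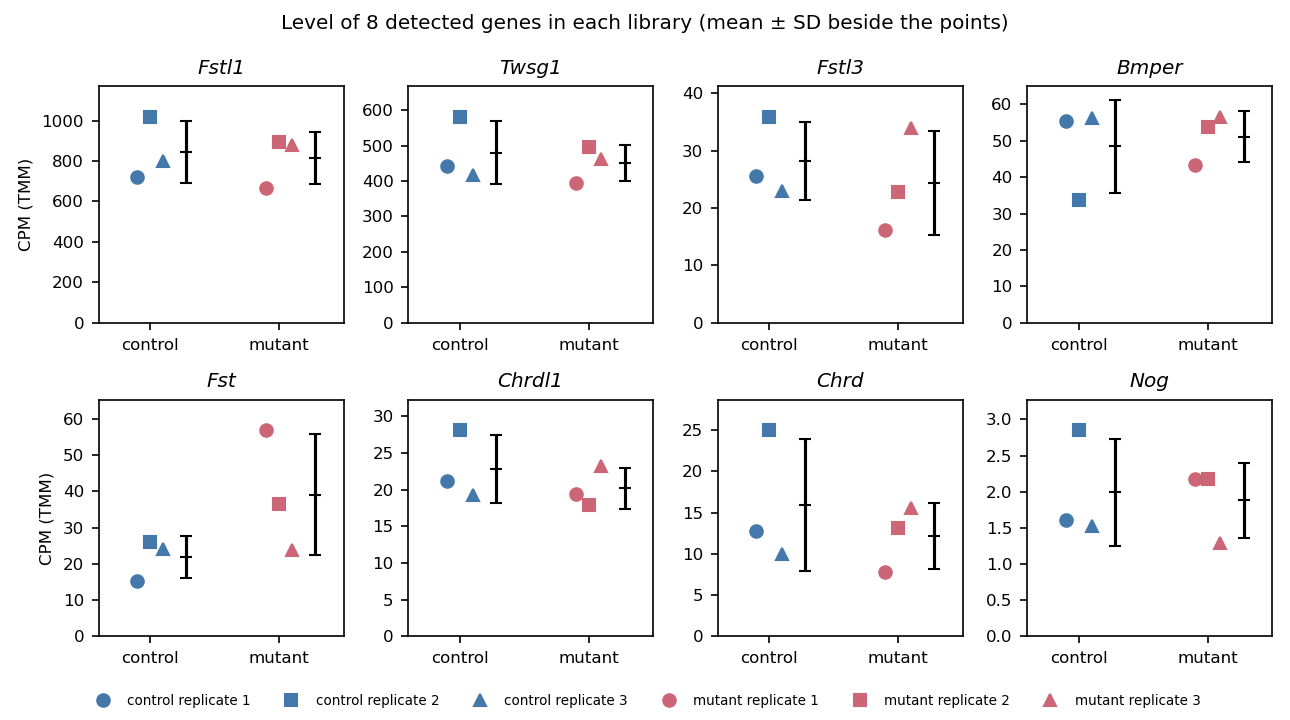
CPM after TMM scaling of each detected gene in the 3 control (blue) and 3 mutant (red) libraries, with a marker shape for each replicate number and the mean ± SD in black. The groups overlap in all 8 panels, and control replicate 2 is the highest control in every panel but that of Bmper.

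Fst encodes Follistatin, a secreted protein that binds activins with high affinity and some BMPs more weakly, and lies on chromosome 13 from 114452290 to 114458951. Its CPM values were 15.2, 26.1 and 24.2 in controls and 56.9, 36.5 and 23.8 in mutants. Mutant replicates 1 and 2 lay above every control, while mutant replicate 3 lay among the controls. The counts behind these levels ran from 758 to 2945 per library. The log2 fold change was 0.84 (SE, standard error, 0.34, 95% interval 0.03 to 1.65), and an exact permutation test of log2 CPM gave a two-sided p of 0.3.

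The size of the difference in Fst rested on mutant replicate 1. Without it the log2 fold change was 0.47. When mutant replicate 3 was left out instead, it came to 1.10, and Fst was then higher in both remaining mutants than in all controls, as were 8.11% of all genes. Leaving out control replicate 1 gave 0.64. The unadjusted p of Fst was under 0.05 in 7 of 16 alternative fits and not in the other 9, which included both covariate fits, the replicate block and the fits without mutant replicate 1 or control replicate 1. The smooth muscle marker sum was at its lowest, 4065 CPM, in mutant replicate 1, where Fst was at its highest, and in a fit that took the smooth muscle score as a covariate the value for Fst was 0.49. The part of smooth muscle in this difference was not tested. Over the 6 libraries, the genes whose log2 CPM ran most like that of Fst were Gm20362, Ddx60 and Hpcal4, with Pearson correlations of 0.987, 0.985 and 0.982, given as a description of 6 points that include the difference between the groups.

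Fstl3, the other activin-binding member of the follistatin family, lies on chromosome 10 from 79777272 to 79782630. Its CPM values were 25.6, 35.9 and 22.9 in controls and 16.2, 22.8 and 34.0 in mutants. Mutant replicates 1 and 2 thus lay below all controls and mutant replicate 3 lay near the highest control, the reverse of the order seen for Fst. The log2 fold change of Fstl3 was -0.21 (SE 0.29), with a 95% interval of -0.90 to 0.48. Without mutant replicate 3 it was -0.53 and Fstl3 was lower in both remaining mutants than in all controls, as were 9.06% of all genes, and without mutant replicate 1 it was 0.012.

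Fstl1, whose protein shares a follistatin-type domain but is not chiefly an activin antagonist, lies on chromosome 16 from 37776873 to 37836514. Fstl1 stood at 723, 1018 and 799 CPM among controls and at 666, 895 and 879 CPM among mutants. The groups overlapped and their means were 847 ± 153 and 813 ± 128 CPM (SD, n = 3). The counts behind them ran from 27991 to 51499 per library. Its log2 fold change of -0.06 (SE 0.21) had a 95% interval of -0.55 to 0.43, so that differences of that size in either direction were not distinguished from none.

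Chrd (chromosome 16, 20733127 to 20742384) encodes Chordin, which binds BMPs directly, and its highest library stood at 3.22 times its lowest. Its CPM values were 12.8, 24.98 and 10 in controls and 7.76, 13.2 and 15.6 in mutants. Control replicate 2 stood at 2.19 times the mean of the other controls, and mutant replicate 1 at 0.540 times the mean of the other mutants. The log2 fold change was -0.39 (SE 0.40, 95% interval -1.33 to 0.55), and without control replicate 2 it was 0.10, with the direction reversed.

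Chrdl1, a relative of Chordin on the X chromosome (143285674 to 143394262), was read at 21.2, 28.1 and 19.2 CPM in the controls and at 19.4, 17.9 and 23.3 CPM in the mutants. Its groups overlapped, and without control replicate 2 its log2 fold change of -0.18 (SE 0.18) came to less than 0.001 in size. Nog (chromosome 11, 89300638 to 89302332) was read at 1.60, 2.85 and 1.52 CPM in the controls and at 2.18, 2.18 and 1.29 CPM in the mutants, from 41 to 144 counts per library. For Nog the log2 fold change was -0.08 (SE 0.39), and its 95% interval of -1.0 to 0.85 was wide beside that of Twsg1.

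The modulators Twsg1 and Bmper behaved in opposite ways in control replicate 2. Twsg1 (chromosome 17, 65921972 to 65951226), which binds both BMPs and Chordin, was read at 441, 581 and 416 CPM in the controls and at 394, 495 and 462 CPM in the mutants. Its log2 fold change was -0.09 (SE 0.18, 95% interval -0.51 to 0.33). Bmper (chromosome 9, 23223076 to 23485200), a Chordin-like protein of endothelial cells, was read at 55.4, 33.7 and 56.2 CPM in the controls and at 43.2, 53.7 and 56.5 CPM in the mutants. Control replicate 2 was the lowest of the 6 libraries for Bmper and the highest for Twsg1. For Bmper the log2 fold change was 0.08 (SE 0.22, 95% interval -0.43 to 0.59), and without control replicate 2 it was -0.12.

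**Figure D3:**
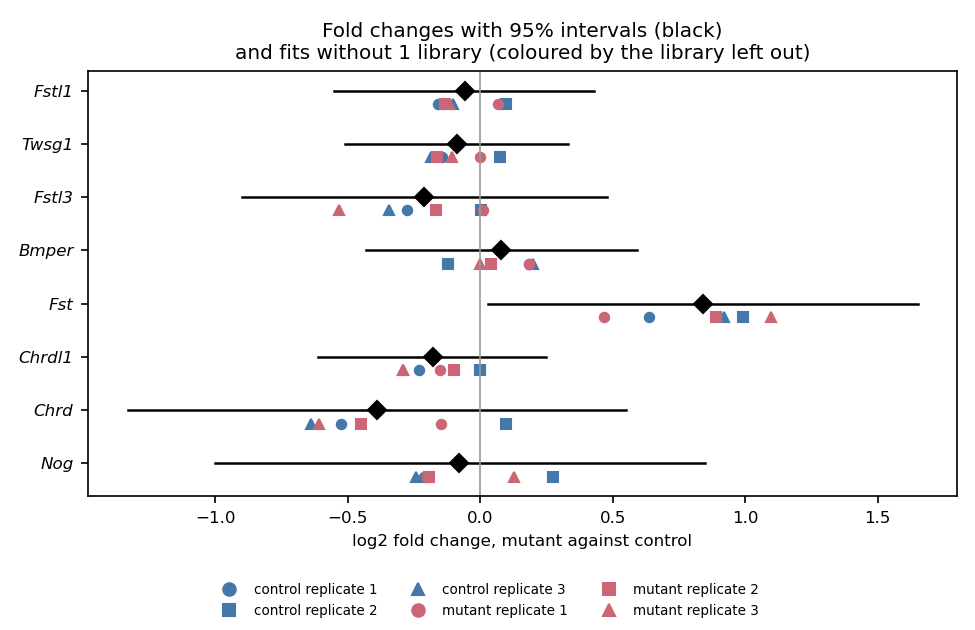
Log2 fold change of each gene, mutants against controls, with its 95% interval (black), and below it the value in each fit that left out 1 library, coloured and shaped by the library left out. The interval of Fst, 0.03 to 1.65, is the one that does not hold 0, and in Nog, Chrd, Fstl1, Fstl3, Bmper and Twsg1 some fits lie on the other side of 0.

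Several members shared their highest and lowest libraries. Control replicate 2 was the highest of the 3 controls in 7 of the 8 genes and the highest of all 6 libraries in 6 of them, while over all genes tested it was the highest control in 39.2% and the highest library in 24.4%. Mutant replicate 1 was the lowest library in 4 of the 8, namely Chrd, Fstl1, Fstl3 and Twsg1, and in 20.1% of all genes tested. The median SD of log2 CPM among the controls was 0.36 over the 8 genes and 0.20 over all genes, and among the mutants it was 0.29 and 0.20.

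Chrd varied most like Twsg1 among the members, with a Pearson correlation of log2 CPM of 0.95 over the 6 libraries, and of 0.92 with Fstl3 and 0.88 with Fstl1. The correlation between Chrd and Fst was -0.44, and that between Nog and Bmper was -0.87. These values describe 6 points, and both genes of a pair were read from the same libraries at the same depth. Outside the group, the genes most like Chrd were Gpc6, Zfp667 and Jag1, with correlations of 0.997, 0.990 and 0.988.

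Marker scores of other cell types also differed between these libraries. Relative to the mean of the 6 libraries, the smooth muscle score was 0.89 higher on the log2 scale in control replicate 2 and lay at -0.92 in mutant replicate 1, where Chrd lay at 0.90 and -0.72. The mesothelial and epicardial score lay at 1.98 and -1.08 in the same libraries, and the cardiac muscle score at -1.16 and 0.64. The lowest mesothelial and epicardial score, -1.38, was in control replicate 1, where Chrd lay at -0.04 and the smooth muscle score at 0.11. The score of valve interstitial cell markers stayed between -0.18 and 0.15. The part of these cell types in the levels of the antagonists was not tested. The smooth muscle score was higher in all 3 controls (0.08 to 0.89) than in all 3 mutants (-0.92 to -0.01). A fit with this score as a covariate therefore cannot separate smooth muscle from genotype, and its values for any gene are not corrected estimates. In this fit 7 of the 8 genes had a log2 fold change of the other sign, among them Chrd at 0.57 and Fstl3 at 0.40. Of the 8, 0 had an adjusted p under 0.05. Fst kept its direction.

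**Figure D4:**
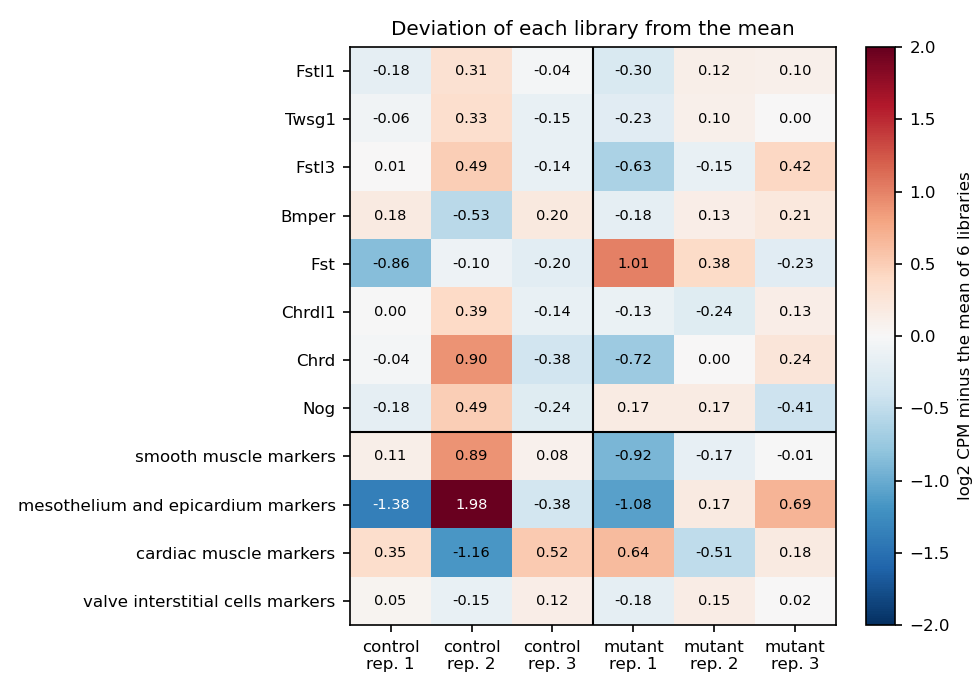
Deviation of log2 CPM from the mean of the 6 libraries for the 8 genes (upper rows) and for 4 marker scores (lower rows), with the values written in the cells. Chrd and the smooth muscle score share their highest library, control replicate 2 (0.90 and 0.89), and their lowest, mutant replicate 1 (-0.72 and -0.92).

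Other genes of the pathway were described in 7 lists of 77 genes in all, of which 68 could be tested. Of these, 33 had log2 fold changes above 0 and 35 below, and 0 had an adjusted p under 0.05 in edgeR. At an unadjusted p under 0.05 there were 2 higher and 3 lower in the mutants, beside 1.59% and 1.86% of all genes. A list of 13 further secreted antagonists had 10 tested, 5 in each direction, with a median log2 fold change of 0.02 and 0 at an unadjusted p under 0.05. Without control replicate 2, 2 of the 10 lay below 0 and the median was 0.09. Without mutant replicate 1 these were 6 and -0.09. Proteases and matrix proteins linked with the antagonists, their ligands or the protease Bmp1 were also split, with 5 of 8 above 0 and a median of 0.12. The median was -0.01 without mutant replicate 3 and 0.22 without control replicate 2. With the smooth muscle covariate 0 of the 8 lay below 0 and the median was 0.47. Bmp1, a protease that cleaves Chordin, stood at a log2 fold change of 0.22 (SE 0.16), and Htra1, a secreted serine protease, at -0.23 (SE 0.16). Pcolce and Pcolce2 encode enhancers of procollagen cleavage by Bmp1, and their values were 0.07 and 0.42. Each of these 4 values rested in part on 1 library. Without mutant replicate 3, Bmp1 stood at 0.05, Pcolce at -0.07 and Pcolce2 at 0.21, and without mutant replicate 1 Htra1 stood at -0.11. In the covariate fit for smooth muscle Bmp1 stood at 0.46, Pcolce at 0.15, Pcolce2 at 0.64 and Htra1 at 0.05.

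Of the ligands that Follistatin binds, the activin subunit gene Inhbb was read at 49.95, 45.2 and 52.95 CPM in controls and at 56.5, 111 and 79.99 CPM in mutants. All mutants lay above all controls, as they did for 2 of the 5 activin and related ligands tested, Inhbb and Inha, the gene of the inhibin subunit alpha, and for 4.04% of all genes. For Inhbb the log2 fold change came to 0.74 (SE 0.23, with an adjusted p of 0.999 in edgeR), which was 0.47 without mutant replicate 2. Inhba, the other activin beta subunit gene tested, overlapped between the groups, with a log2 fold change of 0.23 (SE 0.22). Without mutant replicate 2 it was -0.04, with the direction reversed, and without mutant replicate 3 it was 0.42. The mutant with the most Fst, replicate 1, had the least Inhbb of the 3 mutants.

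Of 11 BMP ligand genes tested, 8 had log2 fold changes below 0, with a median of -0.45. Without control replicate 2 the median was -0.22 and without mutant replicate 2 it was -0.70. Bmp6, which with Bmp4 had the highest levels per length of the ligand genes in the controls, was read at 89.6, 217 and 148 CPM in the controls and at 90.9, 85.8 and 57.4 CPM in the mutants. Its log2 fold change of -0.96 (SE 0.33, with an adjusted p of 0.999 in edgeR) was -0.60 without control replicate 2. For Gdf6 the value was -2.40 (SE 0.86), with 14.6 CPM in control replicate 2 against 1.57 and 2.65 CPM in the other controls and 0.753 to 1.58 CPM in the mutants. Without control replicate 2 it was -0.83. Bmp4, at 134 CPM in that library and 51.0 and 62.0 CPM in the other controls, went from -0.77 to -0.22 when it was left out.

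Downstream, the receptors were split, with 8 of 14 below 0 and 0 at an unadjusted p under 0.05. With the smooth muscle covariate 4 of the 14 lay below 0. The type I receptor genes Bmpr1b and Acvr1c stood at -1.06 and -0.92, and without control replicate 2 at -0.20 and 0.28. The covariate fit for smooth muscle gave 0.37 and 0.74. The co-receptor gene Eng had the highest level per length, at 197 CPM per kilobase in the controls. Of 6 Smad genes, Smad1, Smad3 and Smad4 had all 3 mutants below all 3 controls, beside 4.83% of all genes. Smad1, which carries BMP signals, was read at 96.9, 117 and 104 CPM in the controls and at 72.1, 88.6 and 76.4 CPM in mutant valves. Its log2 fold change was -0.43 (SE 0.12, with an adjusted p of 0.999 in edgeR). It ran from -0.52 to -0.34 when each library was left out in turn and was -0.25 with the smooth muscle covariate. Among 14 feedback and target genes, 7 lay on each side of 0, and the highest level per length belonged to Id3, with a log2 fold change of 0.01 (SE 0.16). Smad6, an inhibitory Smad that BMP signals induce, stood at 0.42 (SE 0.17) and passed an unadjusted p of 0.05, with mutant replicate 3 among the controls. Its adjusted p was 0.999 in edgeR. The study takes Smad6, Bambi, Bmpr2 and Msx1 as genes that go with BMP signaling and reports them as not altered. Here Bambi stood at 0.07, Bmpr2 at -0.14 and Msx1 at 0.04. Atoh8, a transcription factor gene, stood at -0.57, and at -0.17 without control replicate 2.

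**Figure D5:**
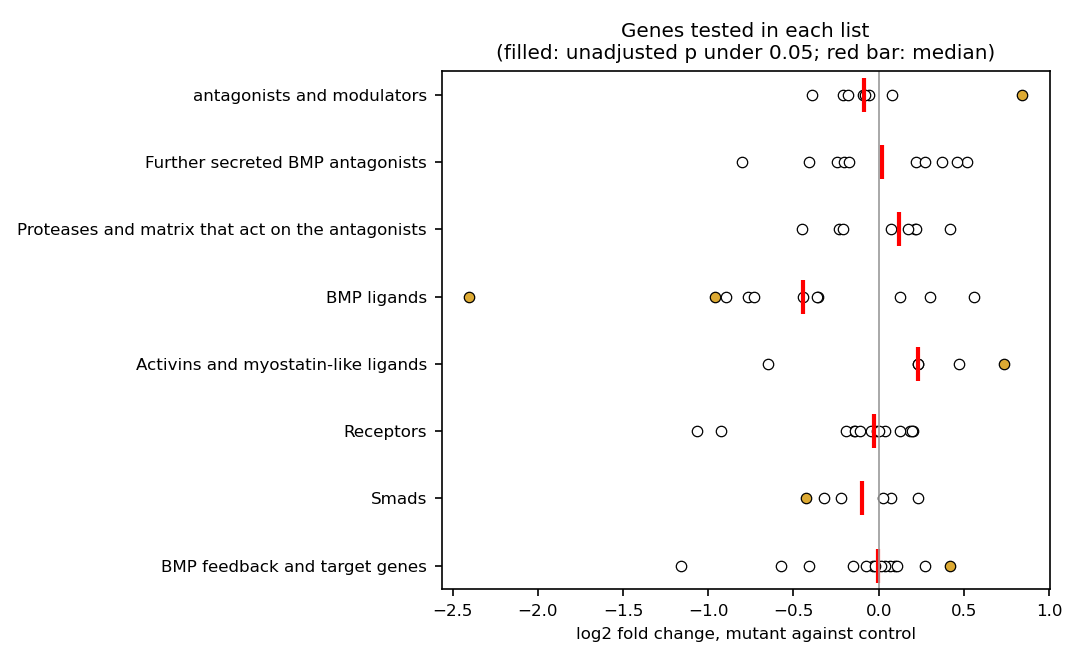
Log2 fold change, mutants against controls, of each gene tested among the antagonists and modulators (top) and in 7 lists of other pathway genes, with a red bar at each median and filled points at an unadjusted p under 0.05. The medians run from -0.45 for the BMP ligands, which was -0.22 without control replicate 2, to 0.23 for the activins and related ligands, which was 0.02 without mutant replicate 2.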

How the data were processed

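The members and the gene lists were chosen with earlier results of these data known. The rule for the members speaks of 10 genes, of which 9 were named and used, and counts of members are over these 9. Per the labels and the methods, reads were aligned to mm10 with TopHat2 2.0.13 and Bowtie2, and genes were quantified with Cufflinks and Cuffdiff 2.1.1. For Bowtie2 the submitters' processing notes give version 2.2.1 and the study's methods an earlier one. The authors deposited estimated counts, the fragments that Cuffdiff assigned to each gene in each library, not normalized. In each library 1.66% to 1.87% of genes had a value with a decimal part, and all values were rounded. The annotation release and any strand setting are not given in the sources used here.

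The 15354 genes that reached 10 counts in 3 or more libraries were compared between mutants and controls by edgeR 4.0.16 (R 4.3.3), with TMM factors, a quasi-likelihood F test, no covariate and Benjamini-Hochberg adjustment over all of them at 0.05. The biological coefficient of variation was 0.278. Standard errors and 95% intervals of log2 fold changes were derived from the F statistic of each gene. Marker scores are mean log2 CPM with 0.5 added to each value. Exon lengths and positions came from GENCODE M21 (GRCm38), matched by symbol for 89.8% of genes. The text names every member and, in the pathway lists, genes among the 2 with the smallest p and the 2 with the highest level per length. Bmp1 was named outside this rule, for its known action on Chordin, after its value was seen. Bambi, Bmpr2 and Msx1 were also named outside it, since the study names them beside Smad6. The further antagonists are given by counts alone. Alternatives used DESeq2 1.42.0 and limma 3.58.1. The pipeline was tested on simulated data. There edgeR recovered 20 of 100 genes with a log2 change of 1 and 97 of 100 with a change of 2. Of the 125 genes it called, 8 were unchanged. Most changes of the smaller size were thus missed in the simulation. Cuffdiff was not run, since the reads were not used.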

Additional observations from a re-analysis of the deposited data

How the results depend on the processing

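The 8 genes were refitted under 15 or 16 alternatives each, 127 values in all, of which 98 kept the direction, 29 reversed and 0 had an adjusted p under 0.05. Fst kept its direction in all 16, from 0.47 to 1.10. The smooth muscle score separated the groups, so the fit with it cannot be read as a correction. With the smooth muscle score in the model the log2 fold changes that reversed were 0.16 for Nog, 0.57 for Chrd, 0.10 for Chrdl1, 0.31 for Fstl1, 0.40 for Fstl3, -0.044 for Bmper and 0.23 for Twsg1. With the cardiac muscle score they were 0.069 for Nog and 0.003 for Fstl1. In limma-voom weighted by sample quality they were 0.087 for Nog, 0.067 for Fstl1, -0.015 for Bmper and 0.044 for Twsg1. With control replicate 2 and mutant replicate 1 both left out, chosen after seeing the data, they were 0.15 for Nog, 0.34 for Chrd, 0.024 for Chrdl1, 0.22 for Fstl1, 0.23 for Fstl3, -0.018 for Bmper and 0.16 for Twsg1, and 3 genes (Chrd, Fstl1 and Twsg1) were then higher in both mutants than in both controls, as were 18.4% of all genes. The causes were not tested. Leaving out each library in turn gave -0.24 to 0.27 for Nog, -0.64 to 0.10 for Chrd, -0.16 to 0.10 for Fstl1, -0.53 to 0.012 for Fstl3, -0.12 to 0.20 for Bmper and -0.18 to 0.075 for Twsg1, and 0 to 1 genes with separate groups in each direction, Fst above and Fstl3 below without mutant replicate 3. The other scalings gave 0. Samples with the same number had correlations of their deviations of 0.373, 0.171 and 0.019, and those with different numbers from -0.364 to 0.237. These few values cannot settle whether the samples were paired. With the replicate block Fst had a log2 fold change of 0.78 and 0 genes passed. Nog could not be tested with a mean count of at least 100.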
